A study of Mus musculus with 6 samples.

Results

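Regulatory T cells were read from single-cell RNA-seq of mouse pancreatic tumours, and 267 of them were found among 6060 T cells and 47794 cell barcodes. A barcode was taken as a T cell when it held at least 3 unique molecular identifiers (UMIs, each standing for 1 captured RNA molecule) over the T cell receptor complex genes Cd3d, Cd3e, Cd3g, Trac and Trbc2, at most 3 UMIs over the complement genes C1qa, C1qb and C1qc, and at least 12% of its UMIs on ribosomal protein genes. Members were chosen by these measured counts: a T cell was taken as a regulatory T cell when it also held at least 1 Foxp3 UMI and no Cd8a or Cd8b1 UMI. The genes in it are described below without a test.

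The tumours grew in the pancreas of 6 wild-type C57BL/6J mice after inoculation of KPC cells, a mouse pancreatic cancer line. Of these mice, 3 received the #44 antibody against mouse VSIG4 and 3 received IgG, by random division, and the tumours were taken at day 11. VSIG4 is a complement receptor of the immunoglobulin superfamily found on tissue macrophages. The sources used here give no dose, schedule, sex or age. Each mouse gave 1 library, and the mouse is the replicate throughout.

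Regulatory T cells restrain other T cells and are held in that state by the transcription factor FOXP3. They depend on IL-2 made by other cells, which they take up through the high-affinity receptor chain CD25 (gene Il2ra), and they carry CTLA-4 and receptors of the TNF superfamily such as OX40 (Tnfrsf4) and GITR (Tnfrsf18). In tumours of mice and people they are a well-known part of the infiltrate, where activated forms that express 4-1BB (Tnfrsf9), CCR8 or KLRG1 are common.

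The gate found 82, 61 and 16 regulatory T cells in anti-VSIG4 libraries 1, 2 and 3, against 79, 9 and 20 in IgG libraries 1, 2 and 3. Their summed depth was 272144, 231565 and 98697 UMIs in the anti-VSIG4 libraries, against 281220, 70212 and 125226 UMIs in the IgG libraries. The median cell held 2935 UMIs and 1282 genes, and single cells ranged from 1016 to 30668 UMIs. Thus 16 cells stand behind every value of anti-VSIG4 library 3 and 9 behind every value of IgG library 2, so that 1 cell can carry a large part of a gene's count there. Whole libraries held between 26606234 and 47221033 UMIs. In anti-VSIG4 library 3, IgG library 2 and IgG library 3, between 55.1% and 61.1% of barcodes had under 12% ribosomal UMIs, against 25.4% to 49.8% in the other 3 libraries. This difference crosses both treatment groups, its source was not tested, and shares are also given within each kind of library.

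The gate has soft edges. Of the 267 cells, 129 held a lone Foxp3 UMI, 63 held 2 and 75 held at least 3, with a highest count of 10. The T cell genes summed to exactly 3 UMIs in 21 of them, and 6 further barcodes with Foxp3 missed the gate with a sum of 2. C1q UMIs numbered 1 to 3 in 173 members, while 85 barcodes were left out for more. Between 12% and 13% ribosomal UMIs were found in 6 members, and 2 barcodes just outside lay between 11% and 12%. A Cd8a or Cd8b1 UMI removed 66 of the 333 T-gated barcodes with Foxp3. A Cd4 UMI was found in 124 members and none in 143, and the reason for the missing Cd4 counts was not tested.

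Foxp3 UMIs were rare in cells that should lack the gene. Among barcodes without a T cell UMI, 25 of 8353 with neutrophil UMIs carried Foxp3, or 0.299% (95% Wilson interval 0.203% to 0.441%, median 1795 UMIs). The share was 0.589% of 5432 C1q-positive barcodes and 1.18% of 2975 CD8 T cells, against 11.5% of 1081 T-gated barcodes with Cd4 and no Cd8 (median 3433 UMIs). Intervals and floors cover counting error only. The reverse error, a missed Foxp3, was not measured. When each regulatory T cell with at least 1500 UMIs was thinned to 1500, a Foxp3 UMI was left in 137 of 224 cells. These cells were chosen for holding Foxp3, so this value shows loss on thinning only and cannot be set against the shares above. The conventional CD4 T cells used for comparison (the same T gate with at least 1 Cd4 UMI, no Foxp3 UMI and no Cd8 UMI, 957 cells) can therefore hold regulatory T cells whose Foxp3 was not captured. CD8 T cells (at least 1 Cd8a or Cd8b1 UMI, no Foxp3, no Cd4) numbered 2940.

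The label was checked against the 4 markers that the gate did not use. Of Il2ra, Tnfrsf4, Tnfrsf18 and Izumo1r, 59 of the 267 cells held UMIs of all 4, 108 of 3, 73 of 2, 20 of 1 and 7 of none. All 4 were thus seen in 22.1% of regulatory T cells, against 3.45% of conventional CD4 T cells and 0.51% of CD8 T cells. At an equal depth of 1500 UMIs the same shares were 9.82% of 224 regulatory T cells, 0.801% of 874 conventional CD4 T cells and 0% of 2726 CD8 T cells. None of the 4 was seen in 4.46% of the thinned regulatory T cells, against 26.7% and 66.6% of the thinned conventional CD4 and CD8 T cells. The markers go with the label, and the members are called regulatory T cells below.

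No UMI of Vsig4, the gene of the antibody's target, was found in any of the 267 cells, which allows a share of up to 1.12% of cells with a UMI and a level of up to 2.78 counts per 1000000 UMIs (CPM). Foxp3 itself, which chose the cells, lay at 570, 639 and 334 CPM in the anti-VSIG4 libraries and at 629, 427 and 343 CPM in the IgG libraries. These Foxp3 levels overlap between the treatments and are given as a description only.

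The regulatory T cell share of the T cell compartment varied more between mice than between treatments. Regulatory T cells made up 7.67%, 4.09% and 2.85% of T-gated cells in the anti-VSIG4 tumours, against 8.04%, 1.42% and 1.51% in the IgG tumours. Library 1 was the highest of each group, and the groups overlap. The means were 4.87% ± 2.5 in anti-VSIG4 and 3.66% ± 3.80 in IgG tumours (SD, n = 3 each), and the difference of 1.21 percentage points was smaller than either SD (exact two-sided permutation test, p = 0.6, adjusted p = 0.8 over 6 tests of shares). Among CD4-lineage T cells, that is regulatory plus conventional CD4 T cells, the share was 33.5%, 24.3% and 13.4% in anti-VSIG4 tumours, against 27.2%, 9.68% and 8.85% in IgG tumours. The means here were 23.7% ± 10.02 and 15.3% ± 10.4 in anti-VSIG4 and IgG tumours (exact permutation p = 0.3, adjusted p = 0.6). The difference of 8.48 points was 3.62 without anti-VSIG4 library 1 and 14.5 without IgG library 1, and 4.99 when at least 2 Foxp3 UMIs were required. A Cd4 UMI was required of the conventional cells only, and 143 regulatory T cells had none, which raises this share. With Cd4 required of both sides the difference was 4.94 points. With 3 mice against 3 the smallest p this test can give is 0.1.

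The kind of library moved with these shares. The kinds are a split by rank into 3 and 3 libraries and not separate classes. Low-ribosomal barcodes made up 49.8% in anti-VSIG4 library 1 and 55.1% in anti-VSIG4 library 3, on either side of the split. Within the 3 libraries with fewer low-ribosomal barcodes, regulatory T cells were 5.88% of T-gated cells in the anti-VSIG4 tumours (mean of 2 libraries) and 8.04% in the IgG tumour. Within the 3 libraries with many, they were 2.85% in the anti-VSIG4 tumour and 1.47% in the IgG tumours (mean of 2 libraries). The direction between treatments thus turned between the kinds for this share, with no more than 2 libraries on any side. As a share of CD4-lineage cells the values were 28.9% and 27.2% in anti-VSIG4 and IgG libraries of the first kind, and 13.4% and 9.26% in anti-VSIG4 and IgG libraries of the second kind. Of all barcodes, regulatory T cells were 0.861%, 0.936% and 0.235% in anti-VSIG4 tumours, against 1.10%, 0.11% and 0.209% in IgG tumours (exact permutation p = 0.8, adjusted p = 0.8). The low-ribosomal barcodes are in that denominator, and their part in the shares was not tested.

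**Figure D1:**
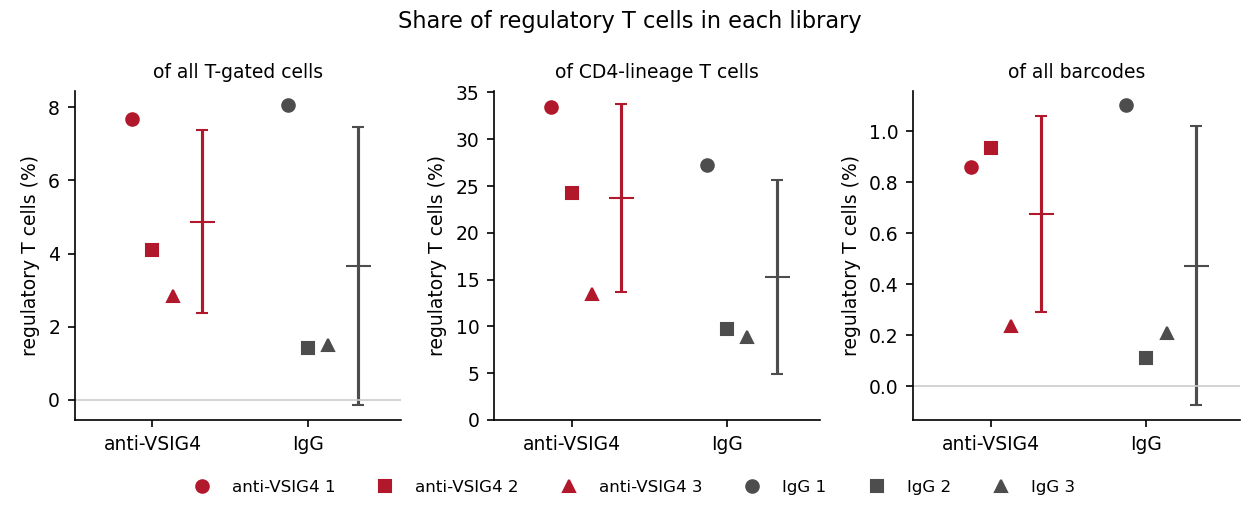
Regulatory T cells as a percent of T-gated cells, of CD4-lineage T cells and of all barcodes in each library, with anti-VSIG4 libraries in red and IgG libraries in grey. Points are libraries, and the bar to the right of each group is its mean with the SD over 3 libraries. Library 1 of each group has the highest share of T-gated cells, 7.67% in anti-VSIG4 and 8.04% in IgG, and the groups overlap in every panel.

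Against conventional CD4 T cells of the same tumours, regulatory T cells differed in a large set of genes. Summed UMI counts per library and cell type were compared with edgeR's quasi-likelihood test with the library as a block, and p-values were adjusted by the Benjamini-Hochberg method over 5596 genes. Of these, 398 passed an adjusted p of 0.05 (7.11%), with 180 higher in regulatory T cells (3.22%) and 218 lower (3.9%). The genes of the gates were not tested. Without the library block 172 genes passed, and with every cell thinned to 1500 UMIs 229 of 2404 genes passed. A Cd4 UMI was required of the conventional cells only, and when it was required of both sides 232 genes passed.

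The 4 markers were all higher in regulatory T cells. Il2ra, the CD25 chain of the IL-2 receptor, lay at 298, 328 and 172 CPM in regulatory T cells of the anti-VSIG4 tumours and at 416, 413 and 192 CPM in those of the IgG tumours, against 40.5, 55.1, 32.6, 51.1, 63.1 and 45.1 CPM in conventional CD4 T cells of the same 6 libraries in the same order. Every regulatory value lay above every conventional one, and the lowest regulatory values came from library 3 of each group. The fitted difference was 2.52 on the log2 scale (SE 0.19, 5.73-fold, adjusted p = 5.19e-11, edgeR). Izumo1r, the folate receptor FR4 that marks regulatory T cells, averaged 362 ± 126 CPM in regulatory and 72.7 ± 19.8 CPM in conventional CD4 T cells (SD, n = 6 libraries), without overlap (4.45-fold, log2 2.15, SE 0.17, adjusted p = 1.1e-10, edgeR).

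The TNF receptors OX40 and GITR are encoded by neighbouring genes on chromosome 4, and both were higher by smaller factors. Tnfrsf4 lay at 1687, 1732 and 1733 CPM in regulatory T cells of anti-VSIG4 tumours and at 2425, 3205 and 623 CPM in those of IgG tumours, against 721 ± 186 CPM in conventional CD4 T cells (SD, n = 6). IgG library 3 was low and lay within the conventional range, which ran from 470 to 938 CPM. The difference was 2.25-fold (log2 1.17, SE 0.20, adjusted p = 0.00322, edgeR). Tnfrsf18 averaged 1291 ± 304 CPM in regulatory and 651 ± 74.9 CPM in conventional CD4 T cells, with no overlap (1.78-fold, log2 0.83, adjusted p = 1.76e-05, edgeR). CD8 T cells held far less of both, with 73.9 ± 34.9 CPM of Tnfrsf4 and 250 ± 25.9 CPM of Tnfrsf18.

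Among further genes of regulatory T cell identity, Ctla4, which competes for the costimulatory ligands of CD28, averaged 516 ± 109 CPM in regulatory and 191 ± 64.8 CPM in conventional CD4 T cells (SD, n = 6, log2 1.30, adjusted p = 1.88e-06, edgeR). The Ikaros family factors Helios and Eos followed, with Ikzf2 at 460 ± 131 CPM in regulatory and 138 ± 95.5 CPM in conventional cells (log2 1.74, adjusted p = 8.35e-08) and Ikzf4 at 123 ± 51.6 and 27.3 ± 12 CPM in regulatory and conventional cells (log2 1.99, adjusted p = 1.76e-05). Lrrc32 encodes GARP, which holds latent TGF-beta on the cell surface. It lay at 213, 194 and 193 CPM in anti-VSIG4 and 245, 142 and 104 CPM in IgG regulatory T cells, against 24.6, 2.98, 3.83, 15.9, 10.5 and 0.92 CPM in the conventional cells of the same libraries. The 2 cell types did not overlap, and the difference was 18.4-fold (log2 4.2, SE 0.33, adjusted p = 9.21e-11, edgeR). In the list of 15 identity genes, 14 could be tested, and 11 were higher and 2 lower in regulatory T cells, with a median of 1.26 on the log2 scale against -0.00 for all genes tested. The 2 lower members were Nrp1, a surface receptor of thymus-derived regulatory T cells, at 18.4 ± 13.6 CPM in regulatory and 60.4 ± 13.1 CPM in conventional cells (log2 -1.67, adjusted p = 0.00334, edgeR), and Rgs1, a regulator of G protein signalling (log2 -0.96). Il2rb, the shared beta chain of the IL-2 receptor, was close to even (log2 -0.13, not past the threshold). Gpr83 had 3 UMIs in all regulatory T cells and could not be tested.

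**Figure D2:**
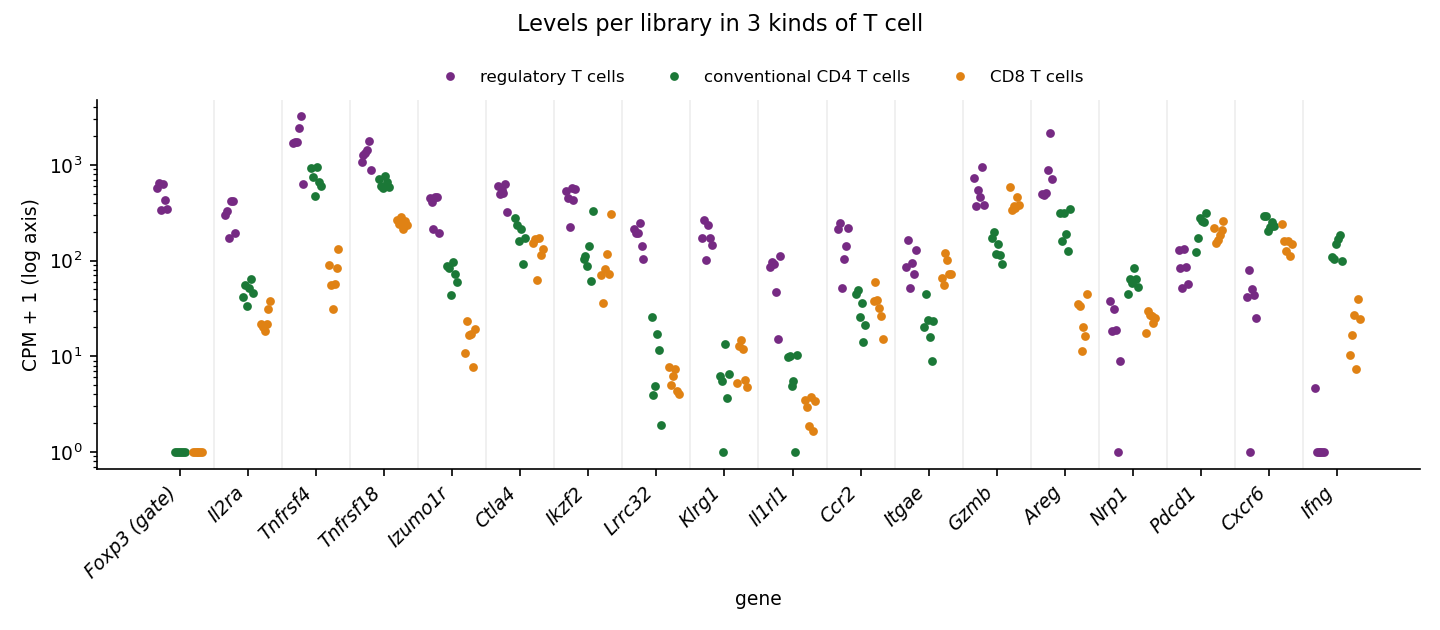
Levels of 18 genes in each of 6 libraries, in regulatory (purple), conventional CD4 (green) and CD8 T cells (orange), as CPM plus 1 on a log axis; each point is the summed count of 1 library. Foxp3 chose the cells and is shown as a description. Il2ra, Izumo1r, Lrrc32 and Klrg1 lie higher in every library of regulatory T cells, Gzmb and Itgae lie at similar levels in regulatory and CD8 T cells, and Cxcr6, Pdcd1 and Ifng lie lower in regulatory T cells in most libraries.

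The promoter windows of some of these genes hold short motifs of factors with a textbook role in regulatory T cells, and they are shown as sequence context for genes that stand high together. The windows run from 250 bases before to 50 bases after the transcription start (RefSeq, GRCm38.p6). Capitals mark a forkhead motif (GTAAACA, or TGTTTAC on the other strand), the kind FOXP3 binds, or a STAT motif (TTCNNNGAA, the same on both strands), the kind STAT5 binds downstream of IL-2. The windows were matched by gene symbol, since the build of the counts is not given in the sources used here. Windows were chosen for holding a match. RefSeq gives 2 start sites each for Foxp3, Tnfrsf9 and Il1rl1, and the window of the other start of each gene holds neither motif. The Foxp3 window shown is chrX:7580233-7580532 on the + strand, with its STAT motif 139 bases before the start. Those of Tnfrsf18 and Tnfrsf9 are chr4:156026072-156026371 and chr4:150927749-150928048, both on the + strand, with STAT motifs 99 and 136 bases before the start. The Il1rl1 window shown is chr1:40439379-40439678 on the + strand, with its forkhead motif 117 bases before the start.
Foxp3: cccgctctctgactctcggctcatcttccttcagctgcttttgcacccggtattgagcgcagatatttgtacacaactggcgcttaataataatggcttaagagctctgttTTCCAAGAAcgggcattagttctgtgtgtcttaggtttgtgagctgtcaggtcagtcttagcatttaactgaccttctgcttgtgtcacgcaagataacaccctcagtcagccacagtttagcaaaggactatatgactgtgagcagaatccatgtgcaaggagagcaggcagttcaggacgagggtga
Tnfrsf18: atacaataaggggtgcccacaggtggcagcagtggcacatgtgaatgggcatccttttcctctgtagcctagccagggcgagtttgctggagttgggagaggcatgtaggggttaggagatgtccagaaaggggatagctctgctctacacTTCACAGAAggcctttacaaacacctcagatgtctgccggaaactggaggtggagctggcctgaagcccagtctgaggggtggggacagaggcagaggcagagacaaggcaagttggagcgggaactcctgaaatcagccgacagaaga
Tnfrsf9: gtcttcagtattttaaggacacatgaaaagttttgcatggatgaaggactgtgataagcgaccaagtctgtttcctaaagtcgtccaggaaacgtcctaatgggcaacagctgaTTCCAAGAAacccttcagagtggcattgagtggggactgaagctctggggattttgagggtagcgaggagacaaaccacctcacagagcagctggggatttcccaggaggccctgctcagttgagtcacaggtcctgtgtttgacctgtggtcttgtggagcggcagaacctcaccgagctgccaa
Il1rl1: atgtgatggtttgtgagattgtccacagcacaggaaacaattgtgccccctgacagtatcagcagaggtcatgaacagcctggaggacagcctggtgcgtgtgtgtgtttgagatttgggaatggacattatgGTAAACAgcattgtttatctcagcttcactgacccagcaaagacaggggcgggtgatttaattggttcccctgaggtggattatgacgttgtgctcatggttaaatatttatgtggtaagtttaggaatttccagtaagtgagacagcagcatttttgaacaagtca
A match is a description of letters and not a binding site. Over all 32851 windows, 3.65% held the forkhead motif and 8.3% the STAT motif. Among tested genes with a window, 4397 in all, the shares were 3.32% and 8.44% of genes. Among the 131 genes higher in regulatory T cells that had a window, 7 held the forkhead motif (5.34%) and 19 the STAT motif (14.5%), and among the 158 lower genes with a window 10 (6.33%) and 15 (9.49%) did. Forkhead matches were thus as frequent among lower as among higher genes, and no test was made of these shares.

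Genes of activated tumour regulatory T cells were higher as well. Klrg1, an inhibitory lectin receptor of highly differentiated cells, lay at 173, 263 and 101 CPM in anti-VSIG4 and 235, 171 and 144 CPM in IgG regulatory T cells, against 5.28, 4.47, 0, 12.5, 2.63 and 5.52 CPM in conventional CD4 T cells of the same libraries. This was 29.4-fold (log2 4.88, SE 0.32, adjusted p = 9.53e-13, edgeR), the largest fold among the named higher genes. At 1500 UMIs per cell, Klrg1 was seen in 20.5% of regulatory, 1.03% of conventional CD4 and 1.14% of CD8 T cells (33.0%, 1.88% and 2.38% unthinned), so about 1 in 5 regulatory T cells showed it at that depth. Tnfrsf9, the costimulatory receptor 4-1BB, averaged 1289 ± 364 CPM in regulatory and 493 ± 171 CPM in conventional cells (log2 1.29, adjusted p = 2.9e-07, edgeR) and was seen in 71.4% of thinned regulatory T cells, against 36.5% and 20.3% of thinned conventional CD4 and CD8 T cells.

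The list of 18 tumour activation genes had 17 testable members, of which 6 were higher and 2 lower. Besides Klrg1 and Tnfrsf9 the higher ones were Maf, a transcription factor of IL-10-producing T cells (382 ± 113 CPM in regulatory and 169 ± 39.6 CPM in conventional cells, log2 1.11), Cd83 (0.97), Samsn1 (0.72) and the integrin chain Itgae. The lower ones were Il1r2, the decoy receptor for IL-1 (-0.66), and Pdcd1. Pdcd1, which encodes the inhibitory receptor PD-1, averaged 89.0 ± 34.7 CPM in regulatory and 232 ± 70.5 CPM in conventional CD4 T cells (log2 -1.31, lower in 5 of 6 libraries, adjusted p = 0.000674, edgeR). Other receptors of that kind gave mixed values. Lag3 was lower (51.4, 86.4 and 0 CPM in anti-VSIG4 and 110, 85.5 and 0 CPM in IgG regulatory T cells, against 125 ± 52.5 CPM in conventional cells, log2 -1.23, adjusted p = 0.027, edgeR), with no UMI in library 3 of either group. The Lag3 call was lost in 5 of 17 alternatives (adjusted p from 1.89e-05 to 0.245), among them those without anti-VSIG4 library 1, IgG library 1 or IgG library 2. Havcr2 (log2 -1.30, adjusted p = 0.065) and Tigit (log2 0.16, adjusted p = 0.893) did not pass. Icos, a costimulatory receptor, averaged 665 ± 207 CPM in regulatory and 432 ± 114 CPM in conventional cells and missed the threshold (log2 0.51, adjusted p = 0.0512, edgeR). Ccr8, the chemokine receptor often named for tumour regulatory T cells, was too low to be tested against conventional cells, with 15 and 14.6 CPM in regulatory and conventional cells.

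**Figure D3:**
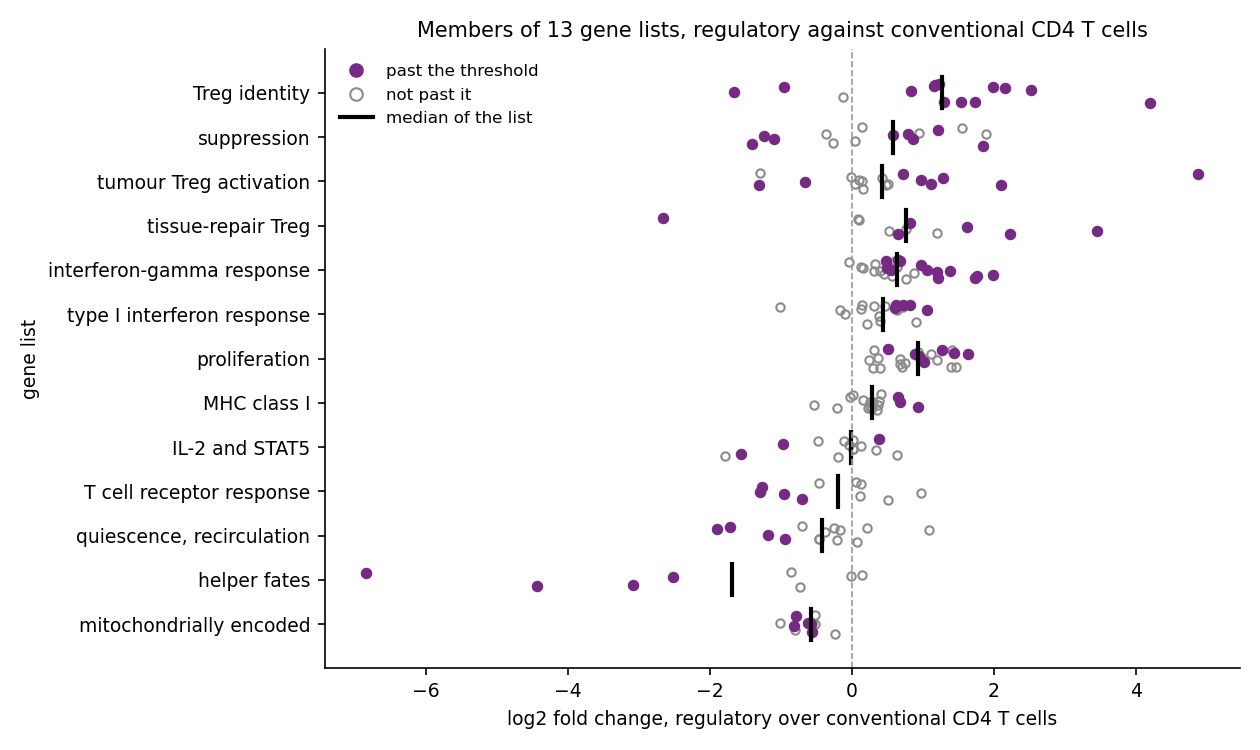
Log2 fold change of each tested member of 13 gene lists, regulatory over conventional CD4 T cells; filled points passed the adjusted p of 0.05, open points did not, and the black bar is the median of the list. The dashed line marks the median of all 5596 genes tested. The identity list has the highest median shown, 1.26, and the helper list the lowest, -1.69.

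Products linked to suppression were uneven. Of 15 tested members of that list 5 were higher and 3 lower, with a median of 0.58. Gzmb, the protease granzyme B, lay at 728, 371 and 547 CPM in anti-VSIG4 and 459, 940 and 383 CPM in IgG regulatory T cells, against 139 ± 40.1 CPM in conventional CD4 T cells (SD, n = 6). The cell types did not overlap, with a log2 difference of 1.84 (adjusted p = 1.72e-08, edgeR). In CD8 T cells Gzmb averaged 416 ± 97.1 CPM, and the difference of regulatory from CD8 T cells did not pass (log2 0.19, adjusted p = 0.546, edgeR). Ebi3, a subunit of IL-35 and IL-27, averaged 118 ± 19.2 CPM in regulatory and 48.2 ± 14.2 CPM in conventional cells (log2 1.21, adjusted p = 0.000965, edgeR), a call lost when cells were thinned (adjusted p = 0.25). Nt5e, the ectoenzyme CD73 that makes adenosine, was higher in 5 of 6 libraries (log2 0.85, adjusted p = 0.0417, edgeR). The Nt5e call was lost in 11 of 17 alternatives, with adjusted p from 0.0054 to 0.623 and a log2 difference down to 0.43, among them DESeq2 and the fits without each library except IgG library 3. Fgl2 and Lgals1 passed at log2 differences of 0.79 and 0.58. Prf1, which encodes perforin, Lgals3 and Lag3 were lower. Il10 averaged 55.0 ± 37.7 CPM in regulatory and 28.4 ± 11.3 CPM in conventional cells and did not pass (log2 0.95, adjusted p = 0.116, edgeR), and neither did Tgfb1 (log2 -0.26), Itgb8 (log2 1.89, adjusted p = 0.118) nor Entpd1 (log2 0.05).

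Genes that mark tissue-repair regulatory T cells formed another group, with 5 of 11 tested members higher and 1 lower and a median of 0.76. Il1rl1, which encodes ST2, the receptor of the alarmin IL-33, lay at 84.5, 95 and 91.2 CPM in anti-VSIG4 and 46.2, 14.2 and 112 CPM in IgG regulatory T cells, against 5.89 ± 3.73 CPM in conventional CD4 T cells. All 6 regulatory values lay above the conventional ones, with the lowest in IgG library 2 (10.9-fold, log2 3.45, SE 0.37, adjusted p = 5.85e-08, edgeR). Gata3, a partner of ST2 expression, averaged 163 ± 62.5 CPM in regulatory and 80.7 ± 8.78 CPM in conventional cells (log2 0.82, adjusted p = 0.0155, edgeR). The Gata3 call was lost in 7 of 17 alternatives, with adjusted p from 0.0055 to 0.266, among them DESeq2, thinned cells and the fits without anti-VSIG4 library 2, IgG library 1 or IgG library 2. Hopx averaged 569 ± 161 and 173 ± 54.5 CPM in regulatory and conventional cells (log2 1.62, adjusted p = 1.13e-09, edgeR), and Nfil3 passed at a log2 difference of 0.66. Ccr2, a receptor for monocyte chemokines, averaged 162 ± 75.9 CPM in regulatory and 30.9 ± 13.7 CPM in conventional cells (log2 2.23, adjusted p = 4.41e-07, edgeR). The lower member was Cxcr6, a chemokine receptor of tissue-resident T cells, at 39.1 ± 26.0 CPM in regulatory and 247 ± 35.9 CPM in conventional cells (log2 -2.67, adjusted p = 4.44e-09, edgeR). The growth factor Areg averaged 871 ± 647 CPM in regulatory and 242 ± 95.5 CPM in conventional cells and did not pass, although it was higher in 6 of 6 libraries (log2 1.55, adjusted p = 0.178, edgeR), as 7.15% of all genes tested were.

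Itgae, the CD103 chain that binds E-cadherin, lay at 84.5, 164 and 50.7 CPM in anti-VSIG4 and 92.5, 71.2 and 128 CPM in IgG regulatory T cells, against 21.7 ± 11.9 CPM in conventional CD4 T cells (log2 2.10, adjusted p = 6.04e-06, edgeR). CD8 T cells, where CD103 is also known, had 79.9 CPM, and the difference of regulatory from CD8 T cells did not pass (log2 0.21, adjusted p = 0.694, edgeR). Itgb7, which pairs with CD103, was higher too, at 770 ± 137 CPM in regulatory and 267 ± 83.6 CPM in conventional cells (log2 1.46, adjusted p = 1.46e-05, edgeR). Both chains of this integrin were therefore higher in regulatory than in conventional CD4 T cells.

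The rule for named genes took the 15 largest folds of each direction. Higher ones not yet described were Frmd5 (94.0 ± 82.7 CPM in regulatory and 7.45 ± 5.83 CPM in conventional cells, 11.2-fold), Rapsn (77.9 ± 23.7 and 6.82 ± 3.06 CPM in regulatory and conventional cells, 10.3-fold), Tnfrsf8, which encodes CD30 (26.1 and 2.06 CPM in regulatory and conventional cells, 9.32-fold), Fam83g, Pon3, Slc36a3os, the Wnt carrier Wls and Bmyc, at 4.57-fold to 6.31-fold. Tnfrsf8 lost its call without anti-VSIG4 library 2 (adjusted p = 0.075, edgeR), Fam83g without anti-VSIG4 library 3 or IgG library 1 (0.103 and 0.118), Pon3 without anti-VSIG4 library 1, anti-VSIG4 library 3 or IgG library 2 (0.0698 to 0.111), and Slc36a3os with Cd4 required (0.115). Frmd5 was the most uneven of the higher genes named here, with 191, 112 and 10.1 CPM in anti-VSIG4 and 188, 14.2 and 47.9 CPM in IgG regulatory T cells.

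The lower genes of the rule included the cytokine genes Ifng, Xcl1 and Csf2, the TNF family ligand genes Tnfsf8 and Cd70, and the receptor genes Cd160, Klrc1 and Klrd1, which NK cells also express. Ifng, which encodes interferon-gamma, had 1 UMI in all regulatory T cells, against 109, 103, 148, 166, 184 and 98.5 CPM in conventional CD4 T cells of anti-VSIG4 libraries 1 to 3 and IgG libraries 1 to 3. By counts it was 139-fold higher in conventional cells (exact 95% interval 24.9 to 5518, 531 UMIs, adjusted p = 4.19e-11, edgeR). Gldc, a glycine-cleaving enzyme, had no UMI in regulatory T cells and 191 in conventional cells. Against a floor of 3 counts over the group it was 16.7-fold lower in regulatory T cells, and the exact 95% interval reached down to 13.5-fold. The chemokine Xcl1 had 7 and 948 UMIs in regulatory and conventional cells, the calmodulin-binding protein gene Nrgn 12 and 1453, the cytokine Csf2 2 and 157, the TNF family ligand gene Tnfsf8 8 and 300, and its relative Cd70 3 and 125. The remaining members, Serpinb9b, Sema4c, Cd160, Serpine2, Nmrk1, Klrc1, Klrd1 and Itga1, had between 1 and 9 UMIs in regulatory and 112 to 252 in conventional cells. For Nrgn, with the most counts, the levels were 10.5 ± 11.8 CPM in regulatory and 357 ± 151 CPM in conventional cells (log2 -4.87, adjusted p = 2.84e-13, edgeR).

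The list of helper T cell fates had 8 testable members, of which 4 were lower and none higher, with a median of -1.69. These were Ifng, Csf2, Cd40lg, the ligand through which helper cells license B cells and dendritic cells (7 and 129 UMIs in regulatory and conventional cells, log2 -2.52, adjusted p = 0.00195, edgeR), and the cytokine Il17a (9 and 218 UMIs, log2 -3.08, adjusted p = 0.0112, edgeR). Il17a was also in the list of gamma-delta T cell markers, and its conventional CD4 level ran from 0 to 181 CPM between libraries. The T helper factors Tbx21 (log2 -0.86, adjusted p = 0.08) and Bcl6 (log2 -0.73) did not pass, and Cxcr3, a chemokine receptor of interferon-driven T cells, was close to even (log2 0.15). Il2 had 13 UMIs in regulatory and 50 in conventional cells and was not tested.

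Quiescence and recirculation genes were lower where they passed, 4 of 14 tested with none higher and a median of -0.42. Tcf7, a factor of naive and stem-like T cells, averaged 26.6 ± 32.5 CPM in regulatory and 78.4 ± 24.5 CPM in conventional cells (log2 -1.90, adjusted p = 0.000389, edgeR). Ccr7, which guides cells to lymph nodes, averaged 214 ± 67.1 CPM in regulatory and 376 ± 174 CPM in conventional cells (log2 -0.94, adjusted p = 0.000315, edgeR; 0.156 with at least 2 Foxp3 UMIs required), yet it was higher in regulatory than in CD8 T cells (107 ± 17.5 CPM, log2 0.79, adjusted p = 0.00132, edgeR). Klf3 and Ms4a4b also passed, at log2 differences of -1.18 and -1.72, while Klf2 (log2 0.21), Lef1 (-0.21), S1pr1 (-0.46) and Il7r (0.07) did not. T cell receptor response genes showed 4 of 10 tested members lower and none higher (Nr4a2, Egr1, Nfatc1 and Dusp2, log2 -0.70 to -1.30). In the IL-2 and STAT5 list Pim1 was higher and Bcl2 and Bcl2l11 were lower, 3 of 14 tested in all.

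Interferon response genes that passed were all higher in regulatory T cells. Of 25 tested genes of the interferon-gamma list 13 passed, with a median of 0.64 over the list, where 3.22% of all genes were higher. Igtp, an immunity-related GTPase, lay at 279, 255 and 233 CPM in anti-VSIG4 and 306, 185 and 144 CPM in IgG regulatory T cells, against 65.4 ± 37.3 CPM in conventional CD4 T cells. No value overlapped (log2 1.76, adjusted p = 3.59e-07, edgeR). Among the others were Gbp3, Gbp5, Gbp7, Iigp1, Cxcl10, Ly6a, the immunoproteasome genes Psmb8, Psmb9, Psme1 and Psme2, and the peptide transporter gene Tap1, between 0.48 and 1.99 on the log2 scale. In the type I interferon list 5 of 18 were higher, Bst2, Ifi27l2a, Zbp1 and Isg20 among them, and none lower, and in the MHC class I list 3 of 17 (Tap1, Tap2 and Tapbpl). Gbp genes are close copies of each other, and how reads shared by copies were counted is not given in the sources used here.

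Proliferation genes were also higher where they passed, 7 of 23 tested with none lower and a median of 0.93. Stmn1, a microtubule regulator, averaged 289 ± 158 CPM in regulatory and 128 ± 62.4 CPM in conventional cells (log2 1.02, adjusted p = 0.000503, edgeR), and Ube2c, a ubiquitin carrier of mitosis, 213 ± 217 and 61.9 ± 40.2 CPM in regulatory and conventional cells (log2 1.43, adjusted p = 0.000654, edgeR). The others were Birc5, Plk1, Mcm2, Mcm6 and Tubb5, between 0.51 and 1.63 on the log2 scale. Mki67 did not pass (log2 0.68, adjusted p = 0.233, edgeR). Single cells weigh heavily here: 43 of the 45 Ube2c UMIs of regulatory T cells in IgG library 2 came from 1 cell, and 53 of the 65 Stmn1 UMIs in IgG library 3 came from another. At 1500 UMIs per cell, the share of regulatory T cells with at least 2 UMIs of the 30-gene list was 58.5%, 48.0% and 37.5% in anti-VSIG4 and 56.1%, 55.6% and 61.1% in IgG tumours, and it exceeded that of conventional CD4 T cells by a mean of 1.09 points (exact sign-flip permutation test over 6 libraries, p = 0.719). That difference changed sign with the depth of thinning. The list contains Hmgb2 and Tubb5, which non-dividing cells also express, and no cycling is read from the share.

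Mitochondrially encoded genes went the other way, with 5 of 11 tested members lower and none higher and a median of -0.57. Their summed level in regulatory T cells ran from 952 to 5945 CPM in anti-VSIG4 and from 798 to 4573 CPM in IgG libraries, so it varied more between libraries than between cell types. The other lists had few calls, where 3.22% of all genes were higher and 3.9% lower and nothing is read from a single call in a list. Hypoxia had 1 of 11 tested genes higher (Ddit4), lipid metabolism 1 of 13 (Fabp5), NF-kappaB 1 of 16 higher (Ltb) and 1 lower (Tnfaip3), migration 2 of 15 higher (Itgb7 and Sema4d) and 2 lower (Itgal and Itgb1), apoptosis 3 of 13 lower, TGF-beta response 1 of 9 lower (Tgfbr2), and stress 1 of 20 higher (Hsp90aa1) and 1 lower (Hspa1a).

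Markers of other lineages were checked beside these differences. None of the 7 macrophage, 4 dendritic, 4 B and plasma, 8 epithelial and tumour or 4 fibroblast markers tested passed in either direction in edgeR, and 0, 1, 2, 2 and 0 of them had an unadjusted p under 0.05. None of 1 endothelial, 4 acinar and 2 red cell markers passed (edgeR), with 0, 0 and 1 under 0.05 unadjusted. The 4 tested markers of NK cells and innate lymphoid cells were all on the lower side (median log2 -0.56), and 1 passed, Prf1 (log2 -1.41, adjusted p = 0.0169, edgeR), which T cells also express. Of 10 neutrophil markers 1 was higher in regulatory T cells, Retnlg, and 50 of its 79 UMIs came from 1 cell of anti-VSIG4 library 3. Of 926 Ighm UMIs 479 came from 1 cell of anti-VSIG4 library 2. Ncr1, Cldn5, Tie1, Amy2a5 and Alas2 had no UMI in regulatory T cells. A further fit left out cells with over 2% of UMIs on the macrophage, neutrophil, B and plasma, epithelial and tumour, and fibroblast lists together. In it, 409 of 5565 genes passed between regulatory and conventional CD4 T cells. Dendritic, NK and innate lymphoid, endothelial, acinar and red cell markers were not part of that limit.

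CD8 T cells gave a wider contrast, in which 903 of 8149 genes passed (11.1%), 396 higher in regulatory T cells (4.86%) and 507 lower (6.22%). Both comparisons use the same regulatory T cells, so they are not independent, and values are given side by side. On the log2 scale Klrg1 was 4.88 above conventional CD4 and 4.37 above CD8 T cells, Lrrc32 4.2 and 5.04, Il1rl1 3.45 and 5.08, Il2ra 2.52 and 3.43, Izumo1r 2.15 and 4.34, Tnfrsf4 1.17 and 4.46, Tnfrsf18 0.83 and 2.13, Ctla4 1.30 and 1.76, Ikzf2 1.74 and 2.12, and Maf 1.11 and 4.24. The differences of Klrg1 and Ikzf2 were of like size against both kinds of T cell, and those of Tnfrsf4 and Maf were larger against CD8 T cells. The difference between the comparisons was not tested.

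Some genes passed only against CD8 T cells. Areg averaged 871 ± 647 CPM in regulatory and 25.9 ± 13 CPM in CD8 T cells (log2 4.65, adjusted p = 0.000482, edgeR), and Ccr4, a chemokine receptor of skin-homing and regulatory T cells, 26.0 ± 10.4 and 0.697 ± 0.687 CPM in regulatory and CD8 T cells (log2 4.71, adjusted p = 3.29e-08, edgeR). Il10 (log2 2.27), Itgb8 (4.46), Icos (1.29) and Ccr8 (2.68) also passed there. Among the lower genes of the rule, Ly6c2 averaged 30.0 ± 17.6 CPM in regulatory and 862 ± 363 CPM in CD8 T cells (log2 -5.05), and Cd7 12.4 ± 14.3 and 260 ± 64.9 CPM (log2 -4.27). The adhesion receptor gene Crtam had no UMI in regulatory and 319 in CD8 T cells (at least 8.66-fold lower against the floor of 3 counts), the granzyme gene Gzmk 5 and 1350, and the receptor gene Cd160 4 and 1613. The others were Xcl1, Itga1, Kcnk5, Wdr95, Cdh1, Car2, Bend4, Dapk2, Klrd1 and Klrc1. Of 6 tested markers of NK cells and innate lymphoid cells 4 were lower than in CD8 T cells (Klrk1, Prf1, Gzma and Klre1, median of the list -2.31), all of which CD8 T cells can express. Of other lineages, Ighm and Epcam were higher than in CD8 T cells, and Krt8, Krt18, Cdh1, Col1a2, Sparc, Il1b and the gamma-delta receptor gene Trgc2 were lower. The identity list had 11 of 14 tested members higher and none lower against CD8 T cells, with a median of 2.08 against -0.09 for all genes, and the tumour activation list 10 of 18 higher and 1 lower.

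Cells that carried activation markers were the rule in most tumours. A UMI of Ccr8, Tnfrsf9 or Klrg1 was found, at 1500 UMIs per cell, in 84.6%, 72% and 50% of regulatory T cells in the anti-VSIG4 tumours, against 86.4%, 77.8% and 55.6% in the IgG tumours. Unthinned shares were 89.0%, 85.2% and 81.2% in anti-VSIG4 and 84.8%, 100% and 75.0% in IgG tumours. The thinned share was lowest in library 3 of either group, and the groups overlap (means differing by -4.36 points, exact permutation p = 0.7, and by -12.0 points at 1000 and -0.787 points at 2500 UMIs per cell). Conventional CD4 T cells showed such a UMI in 38.3%, 27.5% and 24.2% of cells in anti-VSIG4 and 48.9%, 32.1% and 45.9% in IgG tumours. The regulatory share was higher in 6 of 6 libraries, by a mean of 34.9 points (exact sign-flip permutation test, p = 0.03125, the smallest that 6 libraries allow, adjusted p = 0.0938 over 3 tests).

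Between treatments no gene passed in regulatory T cells. In edgeR's quasi-likelihood test on 3 against 3 libraries, 0 of 2554 genes (0.0%) reached an adjusted p of 0.05, and 63 (2.47%) had an unadjusted p under 0.05. DESeq2 also called 0, of 7754 genes, with 88 under 0.05 unadjusted. Groups did not overlap for 212 genes (8.3%), 84 higher in anti-VSIG4 (3.29%) and 128 lower (5.01%). With libraries of at least 20 cells only, which leaves anti-VSIG4 1 and 2 against IgG 1 and 3, the count was again 0, of 3585. In conventional CD4 T cells 0 of 5948 genes passed (439 under 0.05 unadjusted) and in CD8 T cells 0 of 8586 (707 under 0.05). Without a filter on low counts 8 genes passed, Apoe, Hspa1a, Ins1, Ins2, Sox4, St8sia3, Tff1 and a gene model without a name. Apoe had 286, 133 and 53 UMIs in anti-VSIG4 and 115, 15 and 23 in IgG libraries, and Hspa1a 20, 5 and 15 UMIs in anti-VSIG4 and 24, 73 and 45 in IgG libraries. Others rested mostly on 1 library, with 36 of 36 St8sia3 UMIs in anti-VSIG4 library 1, 52 of 59 Tff1 UMIs in anti-VSIG4 library 2 and 37 of 46 Sox4 UMIs in IgG library 3, and the 26 UMIs each of Ins1 and Ins2 came from IgG libraries 1 and 3. Fewer cells of a kind and less RNA per cell cannot be told apart in these sums.

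Genes that define the cells showed small fitted differences, anti-VSIG4 over IgG, and none passed. On the log2 scale these were -0.28 for Il2ra, -0.21 for Tnfrsf4, -0.09 for Tnfrsf18, 0.04 for Izumo1r, 0.24 for Ctla4, -0.32 for Ikzf2, -0.06 for Tnfrsf9, 0.02 for Klrg1, 0.28 for Lrrc32 and -0.02 for Gzmb. The summed level of the 15 identity genes was 6893, 6711 and 6292 CPM in anti-VSIG4 and 8115, 9742 and 4304 CPM in IgG regulatory T cells. The anti-VSIG4 values lay inside the IgG range. Over the 12 tested identity genes the median was -0.06, over 13 suppression genes 0.12, over 14 activation genes 0.17 and over 8 tissue-repair genes 0.27, against -0.01 over all genes tested.

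The 10 genes with the smallest p, none of which passed (adjusted p = 0.998 each, edgeR), were of a few kinds. Apoe, a lipid carrier abundant in macrophages, lay at 1051, 574 and 537 CPM in anti-VSIG4 and 409, 214 and 184 CPM in IgG regulatory T cells (log2 1.43, SE 0.37, unadjusted p = 0.00148). Lyz2, macrophage and neutrophil lysozyme, lay at 301, 220 and 263 CPM in anti-VSIG4 and 135, 71.2 and 39.9 CPM in IgG regulatory T cells (log2 1.6). Neither pair of groups overlaps, and Saa3 (log2 1.72), Thbs1 (1.6) and Arg1 (1.49), further genes of myeloid cells in tumours, had the same sign. Apoe had the same pattern in the other T cells, at 887, 737 and 535 CPM in anti-VSIG4 and 439, 260 and 159 CPM in IgG conventional CD4 T cells, and at 948, 504 and 507 CPM in anti-VSIG4 and 433, 377 and 193 CPM in IgG CD8 T cells. The difference between regulatory and conventional CD4 T cells in its treatment effect was 0.02 on the log2 scale. The 10 macrophage markers summed to 2359, 1373 and 1135 CPM in anti-VSIG4 and 1120, 684 and 838 CPM in IgG regulatory T cells, to 1242 to 2173 CPM in anti-VSIG4 and 497 to 1251 CPM in IgG conventional CD4 T cells, and to 1167 to 2183 CPM in anti-VSIG4 and 563 to 1167 CPM in IgG CD8 T cells. Markers of other lineages also had higher fitted values in regulatory T cells of anti-VSIG4 tumours, and none passed (edgeR). On the log2 scale the medians were 0.88 for neutrophil markers (6 of 7 positive), 0.72 for dendritic cell markers (4 of 4), 1.10 for B and plasma cell markers (2 of 2), 0.86 for NK and innate lymphoid markers (2 of 3) and 1.33 for macrophage markers (3 of 4), where 0, 0, 0, 1 and 3 of them had an unadjusted p under 0.05. The 10 neutrophil markers summed to 5504, 3006 and 6910 CPM in anti-VSIG4 and 3282, 570 and 2068 CPM in IgG regulatory T cells, which overlap. Apoe and Lyz2 are themselves members of the macrophage list and among its 3 markers under 0.05. The macrophage sum and median are therefore not a separate observation from those genes. The part of RNA from other lineages in the treatment differences was not tested.

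**Figure D4:**
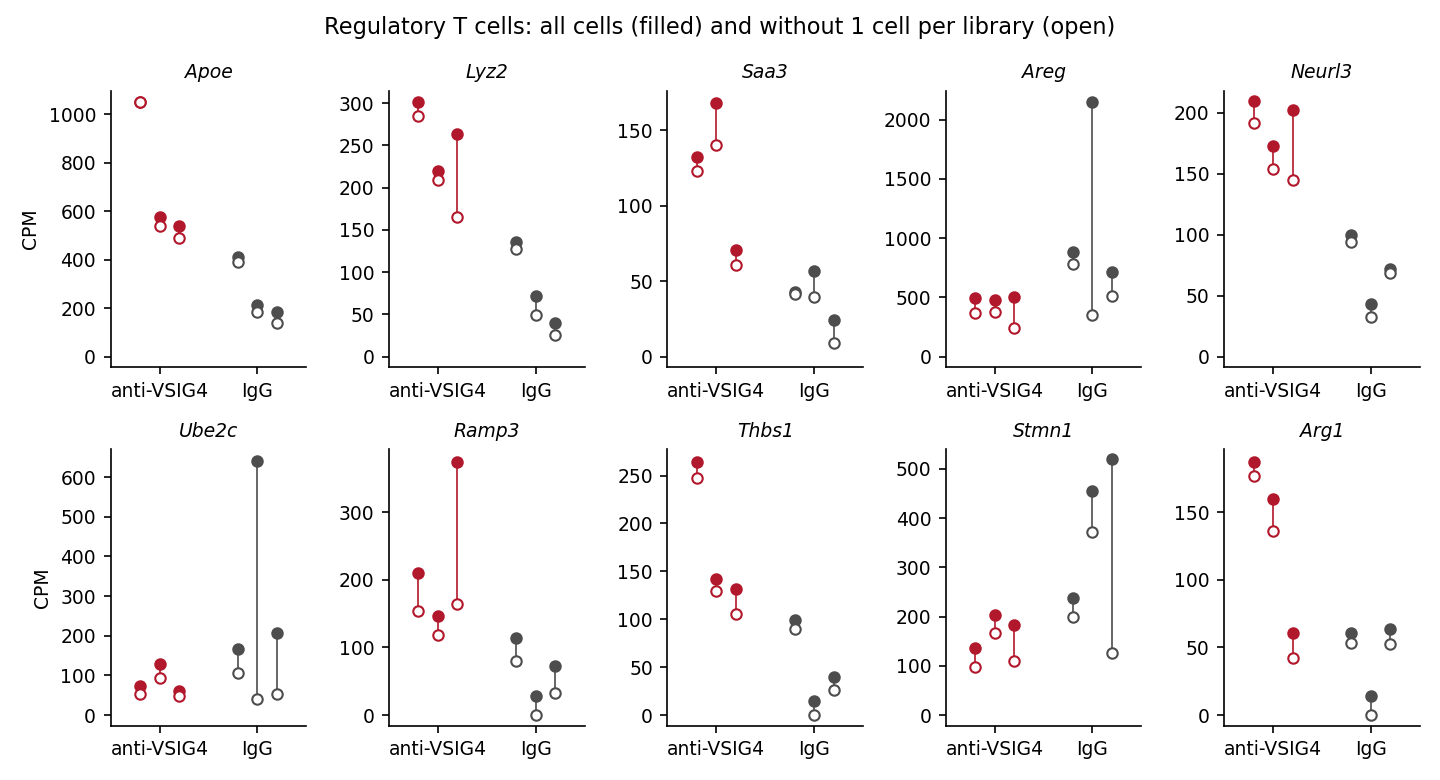
The 10 genes with the smallest p between treatments in regulatory T cells, as CPM per library, anti-VSIG4 libraries on the left in red and IgG libraries on the right in grey. Filled points use all cells and open points leave out the cell with most UMIs of that gene in that library; a line joins the pair. Areg in IgG library 2 goes to 352 CPM from 2151 CPM when 1 cell is left out, and Ube2c to 39.2 CPM from 641 CPM.

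Areg, an epidermal growth factor receptor ligand made by tissue-repair regulatory T cells, lay at 496, 479 and 507 CPM in anti-VSIG4 and 885, 2151 and 711 CPM in IgG regulatory T cells (log2 -1.26, SE 0.36, unadjusted p = 0.00342, not past the adjusted threshold). In IgG library 2, 130 of 151 Areg UMIs came from 1 cell. With the top Areg cell of each library left out, the levels were 371, 380 and 244 CPM in anti-VSIG4 and 779, 352 and 512 CPM in IgG libraries, and the groups overlap. Ube2c (73.5, 130 and 60.8 CPM in anti-VSIG4 and 167, 641 and 208 CPM in IgG, log2 -1.76) and Stmn1 (136, 203 and 182 CPM in anti-VSIG4 and 238, 456 and 519 CPM in IgG, log2 -1.16) also rested partly on single cells. Without the top cell, Ube2c lay at 52.5, 92.4 and 48.4 CPM in anti-VSIG4 and 105, 39.2 and 52.9 CPM in IgG libraries, which overlap, and Stmn1 at 97.8, 167 and 109 CPM in anti-VSIG4 and 198, 372 and 127 CPM in IgG libraries, which also overlap.

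The last 2 of the 10 were Neurl3, a ubiquitin ligase, at 209, 173 and 203 CPM in anti-VSIG4 and 99.6, 42.7 and 71.9 CPM in IgG regulatory T cells (log2 1.37), and Ramp3, a partner of the calcitonin-like receptor, at 209, 147 and 375 CPM in anti-VSIG4 and 114, 28.5 and 71.9 CPM in IgG (log2 1.6). Neither overlaps between the groups, and neither passed. Of the 37 Ramp3 UMIs in anti-VSIG4 library 3, 23 came from 1 cell. Both genes were lower in regulatory than in conventional CD4 T cells over all libraries (log2 -0.70 for Neurl3, adjusted p = 0.025, and -1.36 for Ramp3, adjusted p = 9.12e-05, edgeR).

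The proliferation list had lower values in the anti-VSIG4 tumours, and no member passed (edgeR). Of 13 tested members 11 had a negative sign, with a median of -1.01 against -0.01 for all genes. Of these 13, 6 had an unadjusted p under 0.05 (edgeR), against 63 of all 2554 genes (2.47%). Ube2c and Stmn1, named above among the 10 genes with the smallest p, are members of this list. Its median, count and sums are therefore not a separate observation from those genes. Mki67 lay at 22, 43.2 and 40.5 CPM in anti-VSIG4 and 67.6, 128 and 87.8 CPM in IgG regulatory T cells (log2 -1.32, unadjusted p = 0.0203, adjusted p = 0.998, edgeR). The 30 genes summed to 2186, 2712 and 3080 CPM in anti-VSIG4 and 3382, 4928 and 4049 CPM in IgG regulatory T cells. Single cells weigh on these sums, as with 43 of 45 Ube2c UMIs in IgG library 2 and 53 of 65 Stmn1 UMIs in IgG library 3. Sums without such cells are not given. In conventional CD4 T cells the sums were 1508, 1302 and 1482 CPM in anti-VSIG4 and 2800, 2315 and 2901 CPM in IgG tumours, also without overlap, and in CD8 T cells 2102, 2493 and 1524 CPM in anti-VSIG4 and 2362, 2497 and 3934 CPM in IgG tumours, which overlap. The share of regulatory T cells with at least 2 UMIs of the list differed by -9.59 points at equal depth (exact permutation p = 0.3, adjusted p = 0.6). That difference was -3.19 points at 2500 UMIs per cell, -3.58 with 1 more UMI required, -14.8 without anti-VSIG4 library 1 and -4.34 without anti-VSIG4 library 3.

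**Figure D5:**
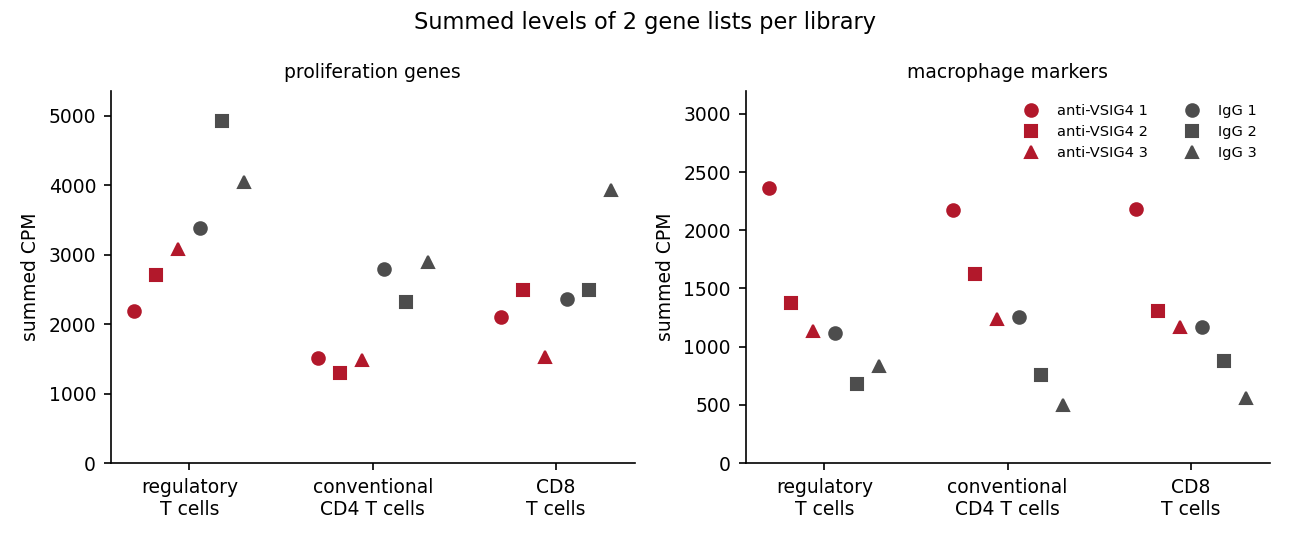
Summed CPM of the 30 proliferation genes and of the 10 macrophage markers in each library, in regulatory, conventional CD4 and CD8 T cells, with anti-VSIG4 libraries (red) left of IgG libraries (grey). Proliferation sums lie between 2186 and 3080 CPM in anti-VSIG4 and between 3382 and 4928 CPM in IgG regulatory T cells. For the macrophage sums, the lowest anti-VSIG4 and highest IgG values lie close together in every cell type. They are 1135 and 1120 CPM in regulatory, 1242 and 1251 CPM in conventional CD4, and 1166.97 and 1166.72 CPM in CD8 T cells.

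The treatment effect in regulatory T cells was also set against that in conventional CD4 T cells. Of 5596 genes 1 passed the interaction test (0.0179%), Ccl17, a chemokine for CCR4 made mainly by dendritic cells, and 159 (2.84%) had an unadjusted p under 0.05. Its 82 UMIs in regulatory T cells of IgG library 1 included 79 from 1 cell, and its 87 UMIs in conventional CD4 T cells of anti-VSIG4 library 2 included 72 from 1 cell. Without cells that held at least 10 Ccl17 UMIs, 0 of 5426 genes passed, and DESeq2 called 0 with 85 under 0.05 unadjusted.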

How the data were processed

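RNA from 6 tumours, 3 anti-VSIG4 and 3 IgG, was measured by droplet single-cell RNA-seq on the DNBelab C TaiM4 platform with MGI sequencing, per the labels. The deposited values are raw UMI counts per gene and barcode, written by PISA 1.0 per the file headers; STAR and Seurat 4.11 are named in the submitters' processing notes. The sources used here give no alignment build, annotation, barcode filter or strand setting. Every deposited barcode had at least 1000 UMIs. Barcodes were gated as described in the report. No doublet caller was run, and leaving out the 6% of cells with the most UMIs is an alternative. Barcode names shared by more than 1 library numbered 11691 of 32450, and 0 had the same name, UMI total and gene number.

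UMI counts were summed per library and cell type and tested with edgeR 4.0.16 (R 4.3.3; TMM scaling, filterByExpr, robust quasi-likelihood fit, Benjamini-Hochberg at 0.05). DESeq2 1.42.0 was an alternative. CPM are per 1000000 UMIs of the summed cells. The gene tests had been planned for libraries with at least 20 gated cells; IgG library 2 and anti-VSIG4 library 3 have fewer and were kept, and the fit without them is an alternative. Treatment was fitted without a replicate block, since the labels do not say that a number marks a shared litter or day. Shares used exact permutation tests over every arrangement of the libraries, and states per cell were read after thinning each cell to 1500 UMIs. Intervals of counts used scipy 1.17.1. One state tested in these families, and some list members that enter the counts, are not reported here. Tables and figures used Python 3.11.15, numpy 2.4.6, pandas 2.3.3 and matplotlib 3.10.9. The gene fits were run on simulated data as a check of the code. The simulated counts had the same spread for every gene and were not built from cells, so sums resting on single cells were not covered.

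The genes named are a fixed set of regulatory T cell genes; up to 15 genes per direction with the largest fold among those past the threshold, with at least 20 CPM on the higher side and the same sign in every library; for treatment, the 10 smallest p at 20 CPM or more; and members of the gene lists. Gate genes, gene models without a name and receptor segments were not named. Members and lists were chosen with earlier results of these data known. Nothing says whether mice shared a litter or a day, so p-values between treatments measure the spread between these mice. Those between cell types, and of the interaction, rest on differences within a library and on how these vary between libraries.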

Additional observations from a re-analysis of the deposited data

Results flagged for a closer look

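The treatment difference of Ccl17 in regulatory T cells minus that in conventional CD4 T cells was -6.02 on the log2 scale (SE 1.08, adjusted p = 0.0304, edgeR), and it stands here because the test of the difference itself passed. Ccl17 encodes a chemokine for CCR4. Its levels in regulatory T cells were 3.67, 17.3 and 0 CPM in anti-VSIG4 and 292, 0 and 0 CPM in IgG tumours, and in conventional CD4 T cells 5.28, 130 and 5.75 CPM in anti-VSIG4 and 12.5, 5.26 and 3.68 CPM in IgG tumours. IgG library 1 alone was high among regulatory T cells and anti-VSIG4 library 2 alone among conventional CD4 T cells, and in each most UMIs came from 1 cell (79 of 82 and 72 of 87).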

How the results depend on the processing

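Values that turned or changed their side of the threshold are given here. The treatment difference in the regulatory share of T-gated cells, 1.21 points, was -0.19 to 3.4 with 1 library left out. For the share with at least 2 proliferation UMIs, regulatory minus conventional CD4 T cells (1.09 points), the value was -1.82 at 2500 UMIs, -3.82 unthinned, 10.3 (exact permutation p = 0.03125) with 1 more UMI required, and -0.611 to 3.3 with 1 library left out. The treatment difference in the activation share, -4.36 points, was -13.2 to 5.08 without 1 library, and the activation share over conventional CD4 T cells, 34.9 points, was 32.6 to 39.9, with an exact permutation p of 0.0625, the smallest that 5 libraries allow.

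Counts of genes moved too. Between treatments 8 genes passed without a filter on low counts and 0 under every other alternative run. Against conventional CD4 T cells 398 became 172 without the library block, 229 thinned, 232 with Cd4 required and 266 to 357 without 1 library, and DESeq2 called 278 of 11828. Against CD8 T cells 903 became 494 without the block and 491 thinned. The interaction count of 1 became 0 with DESeq2, without the block and without cells rich in Ccl17, and was 0 to 1 without 1 library (0 without anti-VSIG4 library 2 or 3). Without IgG library 1 the 1 gene was another one. Each named gene was counted once per alternative, and the alternatives share most of their counts, so these cases are not independent. Of the cases, 1226 kept their direction and side of the threshold, 34 lost a call, 1 gained one (Apoe without a filter, adjusted p = 0.0379, edgeR) and 0 reversed. Among the 1226, 178 were of the 10 treatment genes, none of which passed in the main fit. Of those lost, 32 belong to Ccr7, Ebi3, Fam83g, Gata3, Lag3, Nt5e, Pon3, Slc36a3os and Tnfrsf8 against conventional CD4 T cells. Why values moved was not tested beyond the smaller number of cells or genes each alternative leaves.

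Deviations from the group mean had correlations of 0.217, -0.0179 and 0.131 between same-numbered samples. Between samples of unlike number they ran from -0.3 to 0.223. Such values cannot show whether samples of the same number shared a litter or a day. With a replicate block for treatment 0 of 3085 genes passed and 117 had an unadjusted p under 0.05. Leaving out cells with at least 3 UMIs of other lineages could give no value, since 265 of 267 regulatory T cells hold them; a limit of 2% of UMIs replaced it. That limit and the fits on libraries with 20 cells, without the cell richest in UMIs and without cells rich in Ccl17 were chosen after seeing the data. Depth limits genes: with 9 and 16 cells in 2 libraries, only 2554 genes could be tested between treatments.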
